A study of Mus musculus with 24 samples.

Results

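The genes described here are 10 genes of de novo lipogenesis, the pathway by which liver cells make fatty acids from sugar-derived carbon. They are the regulators Srebf1 and Mlxipl, the enzymes Acly, Me1, Acaca, Acacb, Fasn, Elovl6 and Scd1, and Thrsp. Members were chosen by name, and each symbol matched 1 Ensembl gene in the GENCODE M21 annotation, so that 10 of the 22392 genes in the table belong to the set. All 10 are protein-coding, and all 10 passed the filter on low values (a mean value of at least 10), which left 14040 genes for testing.

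RNA sequencing covered livers of 24 CD2F1 mice in 3 groups of 8, 1 library per mouse. CT mice were sham-injected and had no tumour. C26 mice were injected with cells of C26, a mouse colon carcinoma line used as a transplanted model of cancer cachexia (tumour-driven wasting), and were otherwise untreated. C26-CHO mice were injected with the same cells and received the bile acid-binding resin cholestyramine in the food (2% by weight) on days 1 to 10 after injection. No group of tumour-free mice on the resin was analysed here, and the labels give no age, sex, food intake or tumour weight.

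In this pathway citrate leaves the mitochondrion and is split to acetyl-CoA, which is carboxylated to malonyl-CoA and built by fatty acid synthase into palmitate, with NADPH as the reducing agent. Palmitate is then lengthened and given a double bond before it is stored as triglyceride. In liver the pathway is known for its rise after carbohydrate feeding and its fall in fasting, under the transcription factor SREBP (from Srebf1), which responds to insulin, and the factor ChREBP (from Mlxipl), which responds to glucose.

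The start-site windows of Fasn, Thrsp and Mlxipl are shown because the first encodes the central enzyme of the pathway, the second had the largest fall among genes with a window, and the third is a regulator with a small fall. RefSeq (GRCm38.p6) gave 13 windows for 9 of the 10 genes. Each window runs from 250 bases before to 50 bases after an annotated start, 300 bases in all, 5′ to 3′ on the gene's strand. Capitals mark matches on either strand to CCAAT (reverse complement ATTGG), the core bound by the factor NF-Y, to GGGCGG (reverse complement CCGCCC), the core of a GC box, and to CACGTG, an E-box. The Fasn window is chr11:120824498-120824797 (minus strand), the Thrsp window chr7:97417501-97417800 (minus strand), and the Mlxipl window chr5:135089640-135089939 (plus strand), 1 of 2 for that gene.
Fasn: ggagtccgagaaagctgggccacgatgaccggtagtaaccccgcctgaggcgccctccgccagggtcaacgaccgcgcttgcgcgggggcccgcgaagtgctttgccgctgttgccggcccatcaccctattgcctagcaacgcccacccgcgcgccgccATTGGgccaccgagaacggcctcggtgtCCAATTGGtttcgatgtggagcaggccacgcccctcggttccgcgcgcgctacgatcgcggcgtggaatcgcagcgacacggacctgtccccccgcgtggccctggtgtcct
Thrsp: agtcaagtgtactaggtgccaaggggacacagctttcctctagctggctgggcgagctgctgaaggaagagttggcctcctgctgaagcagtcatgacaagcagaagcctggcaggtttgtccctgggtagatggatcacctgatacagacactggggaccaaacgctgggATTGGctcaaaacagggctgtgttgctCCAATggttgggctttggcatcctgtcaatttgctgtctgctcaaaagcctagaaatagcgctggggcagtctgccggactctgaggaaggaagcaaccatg
Mlxipl: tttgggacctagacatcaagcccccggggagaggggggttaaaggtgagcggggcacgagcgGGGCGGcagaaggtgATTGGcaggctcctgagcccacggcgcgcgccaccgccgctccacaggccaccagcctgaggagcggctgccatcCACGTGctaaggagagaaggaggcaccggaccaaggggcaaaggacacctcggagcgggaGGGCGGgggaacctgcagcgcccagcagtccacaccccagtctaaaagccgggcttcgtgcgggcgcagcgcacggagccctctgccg
The Fasn window held 3 CCAAT matches, at bases -90, -62 and -59 from the start, the last 2 on opposite strands and overlapping. The Thrsp window held 2, at -79 and -52, and this Mlxipl window held 1, at -173, beside GGGCGG at -188 and -38 and CACGTG at -98. A CCAAT match was present in 8 of the 13 windows (of Acacb, Acly, Fasn, Me1, Mlxipl, Srebf1 and Thrsp), and in 37.4% of all 32851 windows. GGGCGG was present in 5 of the 13 (of Acly, Me1, Mlxipl and Srebf1), against 35.7% of all windows, and CACGTG in 1, of Mlxipl, against 7.15%. TATAAA was present in 1, of Acacb, against 13.6% of all windows, and TCACNCCAC, which resembles an SREBP site, in the other Mlxipl window, against 1.24%. These matches describe letters in the windows only. The deposited values are sums over a gene, so the starts of Srebf1 (3 windows) and Mlxipl (2 windows) cannot be told apart in them.

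Depth ranged from 19.9 M to 30.5 M reads per library. Values are normalised read counts, that is, reads divided by the library's size factor. Along the first principal component of all tested genes (71.9% of the variance), CT mice lay between -83.2 and -75.4, C26 mice between 28.8 and 54.6, and 7 C26-CHO mice between 22.3 and 50.5. The mouse C26-CHO 1 lay apart from every other mouse at -13.4. The log2 fold changes of the 10 genes in C26-CHO vs C26 are therefore given with and without it, as are some other results. C26-CHO results with no such second value include this mouse. The summed level of 8 hepatocyte markers had a median of 1764098 in CT, 873018 in C26 and 924847 in C26-CHO. Within that list the median of Alb was 1036331 in CT and 233989 in C26. Ttr, Apoa1 and Cps1 also had lower medians in C26 than in CT. Tat (31507 in CT and 55906 in C26), Hnf4a (12080 and 16338), Apob (103630.1 and 110532) and Serpina1a (281641 and 289677) had higher ones. The summed level of 7 neutrophil markers ranged from 12.4 to 30.9 in CT, 133 to 625 in C26 and 83.0 to 307 in C26-CHO, and that of 6 cholangiocyte markers, most of it Spp1, from 312 to 473, 5471 to 11394 and 2164 to 9449.8 (the lowest C26-CHO value in both being C26-CHO 1). All C26 mice also lay above all CT mice in the sum of 6 Kupffer cell markers (3261 to 4957 in CT, 6194 to 8086 in C26, 5999.9 to 10473 in C26-CHO) and in that of 5 sinusoidal endothelial markers (2045 to 2980, 3171 to 4561, 2778 to 4691). Of the Kupffer cell and endothelial markers, Oit3 had a lower median in C26 (406) than in CT (532), and the others a higher one. The higher cholangiocyte sum in C26 lay mostly in Spp1 (median 344 in CT, 7325 in C26) and Sox9 (36.5 and 548). Of that list the keratins Krt7 (10.4 and 9.39) and Krt19 (17.6 and 11.6) had lower medians in C26. Epcam and Cftr had higher medians, by few reads. In the sum of 7 T, NK and B cell markers all C26 mice lay below all CT mice (30.6 to 99.5, 11.6 to 27.3, 9.50 to 79.8). The sums of 6 stellate cell and fibroblast and 6 erythroid markers overlapped between C26 and CT. The part of these cell types in the results was not tested. White fat also expresses this pathway. The sum of 7 adipocyte markers ranged from 263 to 887 in CT, 258 to 620.3 in C26 and 294 to 533 in C26-CHO, most of it Lipe and Pparg. The other 5 (Adipoq, Lep, Retn, Cfd and Plin1) had medians near 0 in each group, Lep at 0 in all 3. Their sum was highest in CT 7 (414), C26 2 (281) and CT 2 (166). By the summed level of the 10 lipogenesis genes these mice ranked 8, 6 and 4 in their groups. CT 4, with 78.9, ranked 1. The part of fat in these levels was not tested.

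All 10 genes were lower in C26 than in CT liver, and in each of them all 8 C26 mice lay below all 8 CT mice. Together the 10 genes took 0.827% ± 0.251 (SD, n = 8) of the reads in CT and 0.0550% ± 0.0107 in C26, so that the lowest CT mouse (0.461%) stood above the highest C26 mouse (0.0794%). The falls ran from 2.14-fold for Acacb to 94.8-fold for Scd1, with a median log2 fold change of -2.38 against 0.01 over all genes tested. By limma with Benjamini-Hochberg adjustment over all tested genes, 10 of 10 passed the threshold of an adjusted p under 0.05 in the lower direction, where 32.9% of all tested genes did. All 10 were also at least 2-fold lower, against 8.26% of tested genes, and complete separation below CT was found for 18% of tested genes. In bulk liver, fewer cells of a type and less RNA per cell cannot be told apart.

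**Figure D1:**
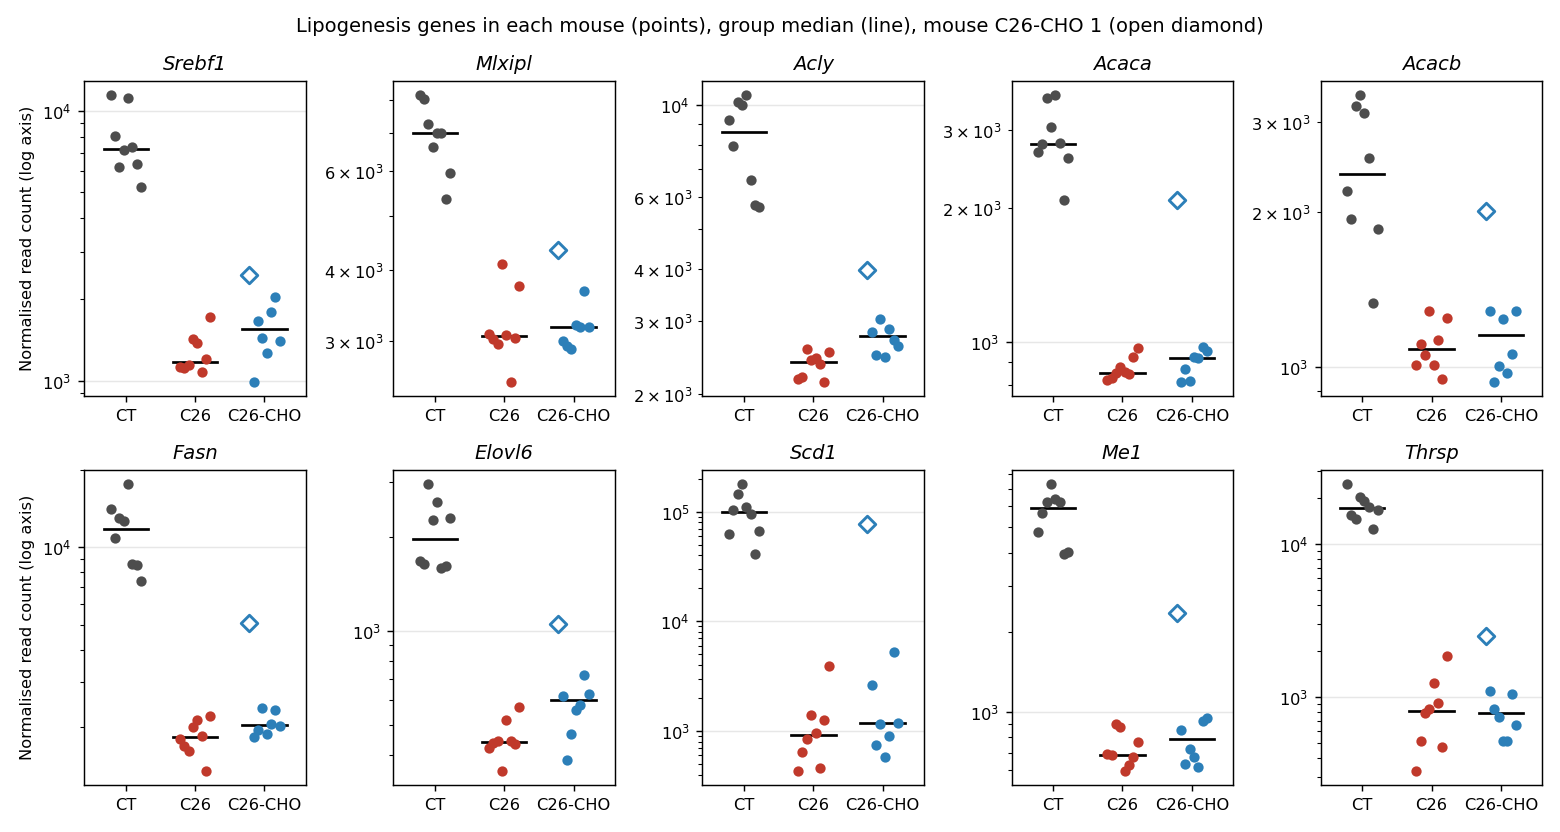
Normalised read count (log axis) of each of the 10 genes in each of 24 mice. Points are mice, horizontal lines are medians of 8 mice, and the open diamond is C26-CHO 1. All C26 mice lie below all CT mice in every panel, and C26-CHO 1 is the highest C26-CHO mouse in every panel, at 76717 for Scd1.

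The regulators fell by different amounts. Srebf1 (chromosome 11, 60199089 to 60222581, minus strand, GRCm38) ranged from 5225 to 11397 in CT with a median of 7234, and from 1077 to 1727 in C26 with a median of 1176. The highest C26 mouse thus stood far under the lowest CT mouse, and the fall was 6.02-fold (log2 fold change -2.59, SE 0.165, limma adjusted p = 5.4e-13). Mlxipl (chromosome 5, 135089890 to 135138382, plus strand) ranged from 5344 to 8169 in CT with a median of 7014, and from 2537 to 4100.1 in C26 with a median of 3056. Its fall was 2.17-fold (log2 fold change -1.12, SE 0.0980, limma adjusted p = 2.09e-10), among the smallest of the 10. Exons of Srebf1 share 109 bases with Rai1 on the other strand, 1.93% of its exon length, and those of Mlxipl share 235 bases (4.24%) with the antisense gene Gm43500. Whether the counting used strand is not given in the sources used here.

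The suppliers of carbon and reducing power fell as well. Acly, the ATP citrate lyase that makes cytosolic acetyl-CoA (chromosome 11, 100476353 to 100528000), had a CT range of 5668 to 10570.2 with a median of 8594 and a C26 range of 2135 to 2568 with a median of 2381. The C26 mice were close to each other (coefficient of variation 7.08%, against 24.7% in CT), and the fall was 3.42-fold (log2 fold change -1.77, SE 0.121, limma adjusted p = 2.04e-12). Me1, the cytosolic malic enzyme that yields NADPH (chromosome 9, 86581371 to 86695953), ranged from 3974 to 7297 in CT with a median of 5934 and from 598 to 898 in C26 with a median of 686. It fell 7.58-fold (log2 fold change -2.92, SE 0.197, limma adjusted p = 1.5e-12), more than any of the 10 but Scd1 and Thrsp.

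The 2 acetyl-CoA carboxylases make malonyl-CoA. Acaca encodes the cytosolic enzyme that feeds synthesis, and Acacb the enzyme at the mitochondrial membrane whose product restrains fatty acid uptake for oxidation. Acaca (chromosome 11, 84129672 to 84401651) ranged from 2086 to 3594 in CT with a median of 2797 and from 818 to 966 in C26 with a median of 851. The C26 values again lay close together (coefficient of variation 5.87%), and the fall was 3.28-fold (log2 fold change -1.72, SE 0.139, limma adjusted p = 4.76e-11). Acacb (chromosome 5, 114146535 to 114250761) ranged from 1335 to 3379 in CT with a median of 2378 and from 949.7 to 1287 in C26 with a median of 1083. The lowest CT mouse was thus near the highest C26 mouse, and the 2.14-fold fall was the smallest of the 10 (log2 fold change -1.10, SE 0.162, limma adjusted p = 1.52e-06).

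Fasn, the fatty acid synthase (chromosome 11, 120805846 to 120824547), ranged from 7408 to 17618 in CT with a median of 11759 and from 1355 to 2204 in C26 with a median of 1823. Every C26 mouse was more than 3-fold under the lowest CT mouse, and the mean fall was 6.17-fold (log2 fold change -2.62, SE 0.181, limma adjusted p = 2.44e-12). Thrsp, a small nuclear and cytosolic protein induced by thyroid hormone and carbohydrate that promotes lipogenesis (chromosome 7, 97412938 to 97417730), ranged from 12538 to 24773 in CT with a median of 17208. In C26 it ranged from 332 to 1876 with a median of 810.3, a wide spread among the C26 mice (coefficient of variation 56.9%). Its 22.7-fold fall (log2 fold change -4.50, SE 0.299, limma adjusted p = 1.14e-12) was the 62nd largest among the 14040 tested genes.

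The genes of chain finishing held the largest fall. Elovl6, which lengthens palmitate to stearate (chromosome 3, 129532355 to 129638495), ranged from 1591 to 2957 in CT with a median of 1968 and from 356 to 567 in C26 with a median of 439, a 4.50-fold fall (log2 fold change -2.17, SE 0.158, limma adjusted p = 6.55e-12). Scd1, the desaturase that makes oleate and palmitoleate (chromosome 19, 44394455 to 44407879), ranged from 40922 to 179181 in CT with a median of 99373. In C26 it ranged from 435 to 3877 with a median of 909, and 7 of the 8 C26 mice lay at or under 1393. Its 94.8-fold fall (log2 fold change -6.57, 95% confidence interval -7.98 to -5.15, limma adjusted p = 5.35e-09) was the 12th largest of all tested genes. At 436 reads in the C26 mouse with fewest, the low Scd1 values did not rest on a handful of reads.

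**Figure D2:**
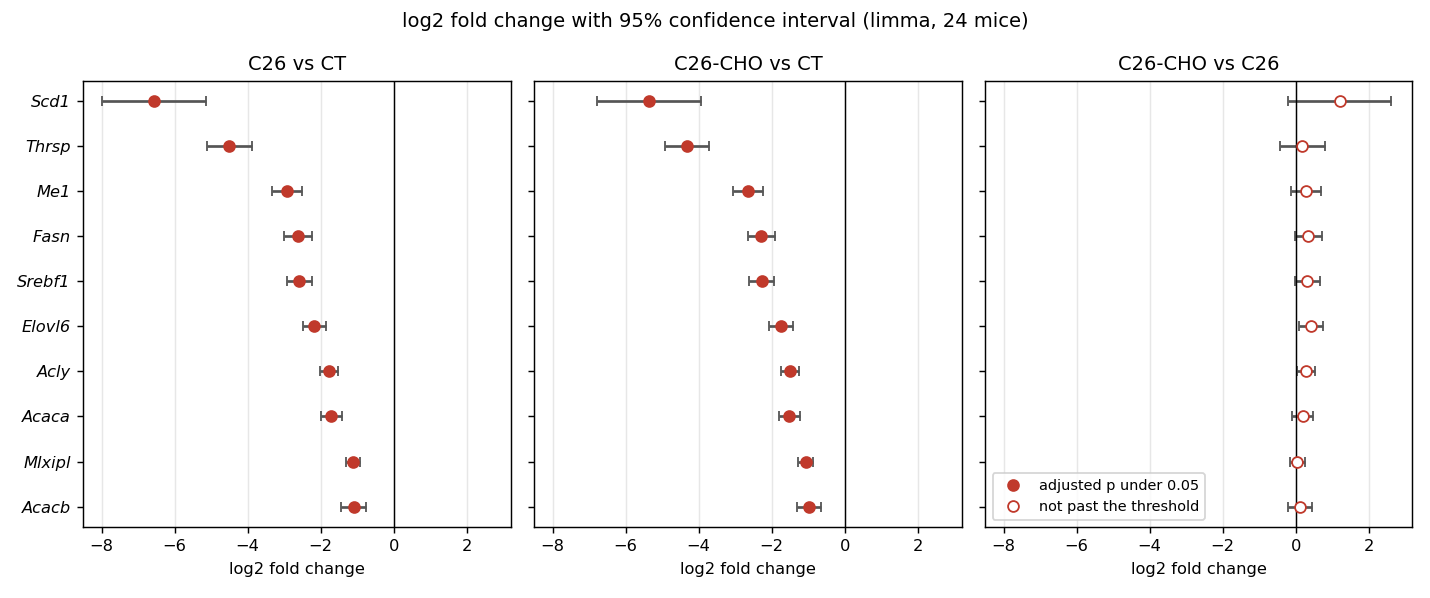
log2 fold change of the 10 genes with the 95% confidence interval of the limma fit, for the 3 comparisons, ordered by the change in C26 vs CT. Filled points have an adjusted p under 0.05. All 10 are below 0 and filled against CT in both tumour groups, and all 10 are above 0 and open in C26-CHO vs C26.

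Levels of different genes were compared per kilobase of exon, taking all annotated exons of a gene together. That length was 17.1 kb for Acaca and 9.63 kb for Acacb, and the order of genes depends on the length used. In CT, Scd1 led with 20483 ± 9290 normalised reads per kilobase (SD, n = 8) and Thrsp followed with 8071 ± 1724. Then came Acly, Me1, Srebf1, Mlxipl and Fasn, between 1562 ± 385 and 1060 ± 312, whose neighbours overlapped in range. Elovl6 (323 ± 81.6), Acacb (255 ± 76.9) and Acaca (169 ± 29.2) were lowest. Between neighbours in that order, ranges over mice failed to overlap from Thrsp to Acly and from Fasn to Elovl6 only. In C26 the order changed: Mlxipl led with 577 ± 88.9, ahead of Acly (445 ± 31.5), Thrsp (398 ± 227) and Scd1 (252 ± 229), and Acaca was again lowest at 50.9 ± 2.99. Only Acacb and Elovl6 were neighbours without overlap there. Scd1 made up 56.9% of the summed per-kilobase level of the 10 genes in CT and 10.1% in C26. In C26-CHO it made up 46.3% with C26-CHO 1 and 13.4% without it.

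Ratios of 2 genes in the same mouse tested whether the genes fell in proportion. Each was a log2 ratio compared by an exact two-sided permutation test, with adjustment over the 18 tests made, and 0.000155 is the smallest p that 8 mice against 8 can give. Scd1 fell further than Fasn, its log2 ratio to Fasn going from 3.03 ± 0.615 in CT to -0.92 ± 0.967 in C26 (difference -3.94, exact adjusted p = 0.000466). Acly fell less than Fasn (difference 0.85, exact adjusted p = 0.000466), and so did Elovl6 by a narrower margin (difference 0.45, exact adjusted p = 0.0296). That last difference was 0.30 under quantile normalisation (exact adjusted p = 0.145). Without CT 1, CT 2, CT 5, C26 3 or C26 7 it was 0.37, 0.41, 0.41, 0.43 and 0.40. It then no longer passed the threshold, with exact adjusted p from 0.0525 to 0.0613.

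Between the carboxylases, the log2 ratio of Acacb to Acaca was -0.28 ± 0.259 in CT and 0.33 ± 0.153 in C26 (difference 0.62, exact adjusted p = 0.000699), so Acaca lost more. Between the regulators, the log2 ratio of Srebf1 to Mlxipl went from 0.15 ± 0.311 to -1.33 ± 0.148 (difference -1.47, exact adjusted p = 0.000466). Srebf1 also parted from its paralogue Srebf2, whose product drives cholesterol synthesis. Their log2 ratio was 3.11 ± 0.346 in CT and 0.17 ± 0.198 in C26 (difference -2.95, exact adjusted p = 0.000466). Srebf2 itself rose from a mean of 878 to 1126 (log2 fold change 0.36, limma adjusted p = 7.88e-05).

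**Figure D3:**
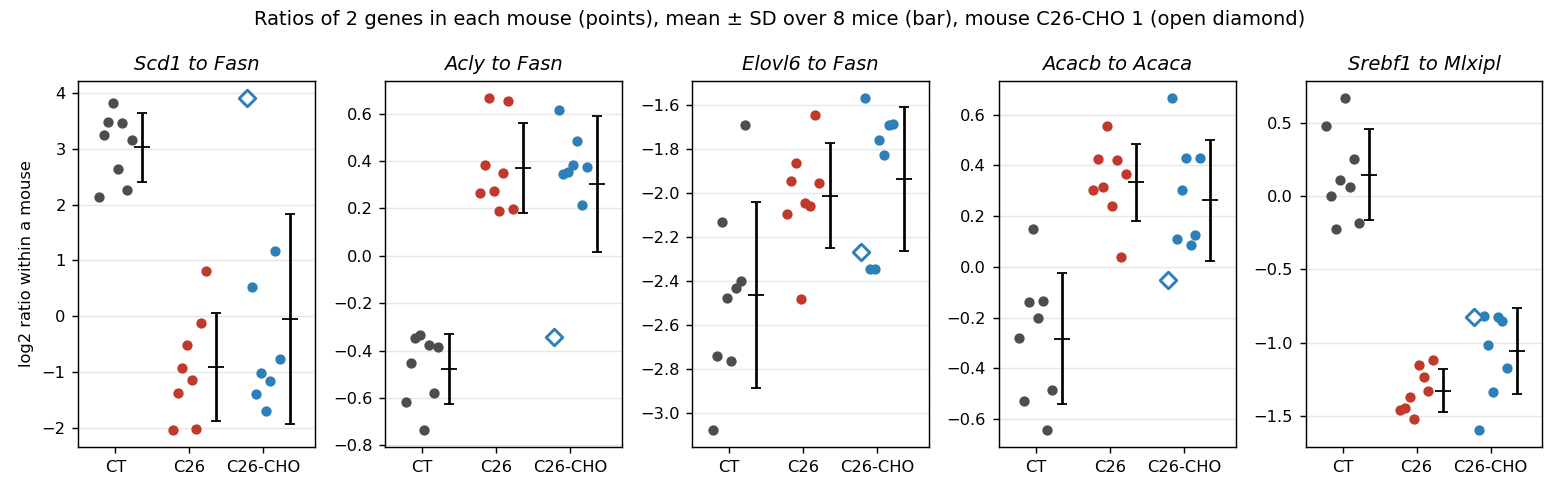
log2 ratio of 2 lipogenesis genes within each mouse, for 5 pairs. Points are mice, black bars are the mean ± SD of 8 mice, and the open diamond is C26-CHO 1. C26 lies apart from CT for Scd1 to Fasn, Acly to Fasn and Srebf1 to Mlxipl. C26-CHO 1 lies just above the highest CT mouse for Scd1 to Fasn and with CT for Acly to Fasn.

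The comparison of C26-CHO with C26 asks what differed with the resin in tumour-bearing mice, and it shares its C26 mice with the comparison above. None of the 10 genes passed the test. limma called 0 of 10, and 2 (Acly and Elovl6) had an unadjusted p under 0.05, as did 1832 of the 14040 tested genes. edgeR's quasi-likelihood test on the recovered reads also called 0, with 5 under 0.05 unadjusted (Srebf1, Acly, Fasn, Elovl6 and Scd1). Of the 14040 tested genes, 1914 were under 0.05 unadjusted in that test. After adjustment limma called 0.556% of all tested genes higher and 0.15% lower. The 10 log2 fold changes were all above 0, with a median of 0.28 against 0.00 over all tested genes. Without C26-CHO 1 the median was 0.13, and 2 of the 10, Mlxipl and Thrsp, were below 0. Without that mouse edgeR called 0 with 1 gene, Elovl6, under 0.05 unadjusted, against 1441 of the 14040 tested genes.

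By limma the member nearest to the threshold was Elovl6, at 384 to 1050.3 in C26-CHO with a median of 598 and 5 of 8 mice above the highest C26 mouse (log2 fold change 0.42, 95% confidence interval 0.09 to 0.75, limma adjusted p = 0.224). Acly ranged from 2459 to 3995 with a median of 2759. In Acly 6 of 8 C26-CHO mice were above the highest C26 mouse and all 8 above the C26 median, but the difference was small (log2 fold change 0.28, interval 0.03 to 0.52, limma adjusted p = 0.317). In Fasn, too, all 8 C26-CHO mice lay above the C26 median, at 1837 to 5071 with a median of 2031 (log2 fold change 0.34, interval -0.03 to 0.72, limma adjusted p = 0.432). Srebf1 ranged from 990.4 to 2453 with a median of 1548, and 7 of 8 mice were above the C26 median (log2 fold change 0.32, interval -0.02 to 0.66, limma adjusted p = 0.423). Without C26-CHO 1 the log2 fold changes of these 4 genes were 0.30 for Elovl6, 0.20 for Acly, 0.18 for Fasn and 0.23 for Srebf1.

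For the other 6 genes the groups lay closer or the spread was wider. Mlxipl had a median of 3171 and a range of 2903 to 4354 in C26-CHO, and its interval was narrow (log2 fold change 0.05, interval -0.15 to 0.25, and -0.01 without C26-CHO 1). Acaca had a median of 919.6, Acacb of 1152 and Me1 of 788, with log2 fold changes of 0.19, 0.12 and 0.28 that became 0.04, 0.01 and 0.07 without C26-CHO 1. Thrsp had a median of 789 against 810.3 in C26 (log2 fold change 0.18, interval -0.43 to 0.80), and without C26-CHO 1 the value was -0.03. Scd1 had a median of 1172 and a range of 579 to 76717. Its log2 fold change of 1.20 (interval -0.21 to 2.62, limma adjusted p = 0.483) was 0.47 without C26-CHO 1, and edgeR gave 3.18 with that mouse (adjusted p = 0.0789) and 0.51 without it (adjusted p = 0.805).

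Against CT, which is also the control of the first comparison, the genes of C26-CHO mice were lower in 10 of 10 cases by limma, where 30.9% of tested genes were called lower. The median log2 fold change was -2.01, from -0.98 for Acacb to -5.36 for Scd1, and 9 of 10 were at least 2-fold lower, against 6.39% of tested genes. All 8 C26-CHO mice lay below all 8 CT mice for 7 genes, against 13.1% of tested genes. In the other 3, Acaca, Acacb and Scd1, the overlap came from C26-CHO 1 alone, and for Acaca it was narrow (2086.4 against 2085.8 in the lowest CT mouse). Side by side, Scd1 had log2 fold changes against CT of -6.57 in C26 and -5.36 in C26-CHO (-6.09 without C26-CHO 1), Thrsp -4.50 and -4.32 (-4.54), Fasn -2.62 and -2.28 (-2.44), and Srebf1 -2.59 and -2.27 (-2.36).

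The mouse C26-CHO 1 had the highest level of its group in all 10 genes, but it did not sit at one distance from CT. Its Scd1 of 76717 was 65.8 times the median of the other 7 C26-CHO mice, stood at 77.2% of the CT median and exceeded 3 CT mice. Its Acacb (2011) and Acaca (2086) stood at 84.6% and 74.6% of the CT medians. Fasn (5071), Me1 (2377) and Srebf1 (2453) stood at 43.1%, 40.1% and 33.9%, each under the lowest CT mouse. Thrsp (2511) reached 14.6% of the CT median. Of the marker lists, its sum was the highest of the C26-CHO group for the 7 adipocyte markers (533, of which the 5 fat-restricted ones made 0.783) and for 7 T, NK and B cell markers (79.8). Its neutrophil (83.0), cholangiocyte (2164), sinusoidal endothelial (2778) and hepatocyte (844477) sums were the lowest of that group. Its Kupffer cell sum (8825) and erythroid sum (25625) were above the group medians of 7576 and 22610.0, and its stellate cell and fibroblast sum (5211) was under the median of 5422. The part of these in its levels was not tested. Among C26 mice, C26 8 was highest in 6 of the 10 genes and had the lowest first component of its group, 28.8.

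Whether a target followed its regulator among mice of a group was described with 48 correlations, Srebf1 and Mlxipl each against 8 genes in 3 groups of 8. By an exact two-sided permutation test with adjustment over the 48, 3 passed on Pearson's r. They were Mlxipl with Acaca in C26-CHO (r = 0.918, exact adjusted p = 0.0250, Spearman's rho 0.905 with adjusted p = 0.110), Mlxipl with Elovl6 in C26-CHO (r = 0.909, exact adjusted p = 0.0363, rho 0.810 with adjusted p = 0.209) and Srebf1 with Scd1 in C26 (r = 0.916, exact adjusted p = 0.0369, rho 0.905 with adjusted p = 0.110). None passed on rho. Leaving out the 2 mice farthest from the median of the regulator (C26-CHO 1 and C26-CHO 7, and C26 4 and C26 8) gave r of 0.858, 0.695 and 0.664, with unadjusted exact p of 0.0625, 0.15 and 0.142. With 6 mice the smallest exact p is 0.00139, which for a lone pair is 0.0667 after adjustment over 48, so the loss of these calls says nothing about the relations. Srebf1 and its targets had a median r of 0.30 in CT, 0.60 in C26 and 0.55 in C26-CHO with all mice, and 0.31, 0.36 and 0.29 without the 2 farthest. Mlxipl and its targets had 0.50, 0.47 and 0.87 with all mice, and these medians changed sign to -0.51, -0.02 and -0.10 without the 2 farthest (CT 7 and CT 8, C26 4 and C26 8, C26-CHO 1 and C26-CHO 7). Leaving those mice out narrows the range of the regulator, which tends to weaken r, so no conclusion is drawn from these medians.

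The genes outside the set with the most similar pattern were found by the correlation, over 24 mice, of each gene's deviation from its group mean with the average deviation of the 10 genes. This is a description, since the genes of a mouse share its depth and scaling, and all genes carry the weight of C26-CHO 1. The 5 nearest were Cyb5b (r = 0.927), Cyb5r3 (0.926), Acss2 (0.915), Rab5b (0.907) and Cyp4f14 (0.902). Over 23 mice without C26-CHO 1 these values were 0.832, 0.834, 0.844, 0.773 and 0.754, and Wrap73 and Sc5d took the places of the last 2 with 0.848 and 0.802. The 10 genes' own correlations with that average ranged from 0.678 for Srebf1 to 0.915 for Acaca over 24 mice, and from 0.567 for Thrsp to 0.820 for Acly over the 23. Each of the 10 is part of that average, which raises its own value, so these are not comparable with the values of outside genes. Cyb5r3 encodes a cytochrome b5 reductase, which passes electrons through cytochrome b5 to desaturases such as that of Scd1. It was lower in C26 (log2 fold change -1.97, limma adjusted p = 9.49e-13), as was Acss2, which makes acetyl-CoA from acetate (log2 fold change -2.17, limma adjusted p = 2.2e-10).

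Around the 10 genes, enzymes that use or modify the fatty acids also fell. Of 17 genes for acyl chain, glycerolipid and desaturation steps, 14 fell and 2 rose in C26 vs CT (33.3% of all tested genes were higher and 32.9% lower), with a median log2 fold change of -1.38. Dgat2, which completes triglyceride, fell from a mean of 16324 to 6393 (log2 fold change -1.35, limma adjusted p = 2.39e-13), and Acsl1, which activates fatty acids, fell by 2.21 on the log2 scale (adjusted p = 1.11e-12). The polyunsaturated branch fell with them, with log2 fold changes of -1.38 for Elovl2, -1.26 for Fads1 and -2.17 for Fads2 (adjusted p = 2.41e-11, 4.98e-11 and 1.09e-10). In this list 4 genes were higher in C26-CHO than in C26, and none was lower (0.556% and 0.15% of all tested genes). They were Elovl2 (log2 fold change 0.56, adjusted p = 0.0160), Fads1 (0.48, 0.0239), Fads2 (0.85, 0.0258) and Acsl3 (0.56, 0.0258). Fitting those 2 groups alone called none of the 4, with adjusted p of 0.0752 to 0.107. The count was 1 or 2 without C26 1, C26 2, C26 7, C26-CHO 7 or C26-CHO 8, and without C26-CHO 1 Fads2 had an adjusted p of 0.0502. Against CT, 13 genes of the list were lower in C26-CHO and 2 higher (30.9% and 31.3% of all tested genes).

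Of 18 genes of precursor and NADPH supply or its control, 15 fell and 2 rose in C26 (32.9% and 33.3% of all tested genes), with a median log2 fold change of -0.98. Pklr, the liver pyruvate kinase, fell by 3.54 on the log2 scale (mean 9922 to 848, limma adjusted p = 2.9e-12). Pdhb, a pyruvate dehydrogenase subunit (log2 fold change -1.47, adjusted p = 2.92e-16), and Tkt of the pentose phosphate pathway (-1.61, adjusted p = 1.11e-12) fell too. So did Mdh1, the cytosolic malate dehydrogenase (mean 10405.7 to 5201, adjusted p = 1.14e-12), and Slc25a1, the citrate carrier (-1.33, adjusted p = 8.52e-10). In C26-CHO vs C26, where 0.556% of all tested genes were called higher, the list held 1 call. It was Idh1, a cytosolic NADPH source that was lower in C26 than in CT (-1.33) and higher with the resin (log2 fold change 0.50, adjusted p = 0.0371). That call ended in 14 of 33 alternatives, with adjusted p up to 0.119, among them the fit without C26-CHO 1 (adjusted p = 0.0545). Slc25a1 (log2 fold change 0.41), Acss2 (0.49) and Pdk4 (0.64) did not pass in that comparison.

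Of 15 control genes of SREBP, 5 were higher and 5 lower in C26, about the shares of all tested genes (33.3% and 32.9%). Insig1, which holds SREBP in the endoplasmic reticulum and is itself an SREBP target, fell by 1.79 on the log2 scale (limma adjusted p = 4.32e-09). Bhlhe40, a transcriptional repressor, fell by 1.05 (adjusted p = 1.99e-09) and Usf2, an E-box factor, fell by 0.56 (adjusted p = 3.65e-08). Mbtps1, the protease that makes the first cut in SREBP, rose by 0.50 (adjusted p = 6.48e-10). In C26-CHO vs C26, 2 of the 15 were higher (0.556% of all tested genes), Srebf2 (log2 fold change 0.39, adjusted p = 0.0129) and Bhlhe40 (0.44, adjusted p = 0.0449), and Insig1 had 0.72 with an adjusted p of 0.0694. Srebf2 kept its call in 32 of 33 alternatives, the fit of the 2 groups alone giving an adjusted p of 0.0575, whereas Bhlhe40 lost its call in 20 of 33, the fit without C26-CHO 1 among them (adjusted p = 0.0822). Srebf1, whose log2 ratio to Srebf2 was 0.17 ± 0.198 in C26 mice and 0.10 ± 0.295 in resin-fed mice, did not pass (exact adjusted p of the ratio = 0.627).

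Of 12 ChREBP partners and sugar-responsive genes, 8 fell and 3 rose in C26 (32.9% and 33.3% of all tested genes), with a median log2 fold change of -1.07. Slc2a2, the hepatocyte glucose transporter, fell by 3.49 on the log2 scale (limma adjusted p = 1.34e-12). Log2 fold changes were -1.63 for Txnip and -0.96 for Gckr, the glucokinase regulator (adjusted p = 2.11e-10 and 2.83e-10). G6pc, the catalytic subunit of glucose-6-phosphatase and a ChREBP target, fell by 3.10 (adjusted p = 6.93e-09), while Mlxip, the MondoA paralogue of Mlxipl, rose by 0.45 (adjusted p = 0.000518). None of the 12 passed in C26-CHO vs C26, where the log2 fold changes ran from -0.57 to 0.82. Of 12 genes that control acetyl-CoA carboxylase, 4 rose and 4 fell in C26, again near the 33.3% and 32.9% of all tested genes. Mid1ip1, a Thrsp-related protein that promotes polymerisation of the carboxylase, fell by 2.11 (mean 619 to 145, adjusted p = 9.25e-11). The AMP-activated kinase subunit genes Prkaa2 and Prkag2 had log2 fold changes of -0.86 and -0.72 (adjusted p = 2.39e-07 and 5.52e-08), and Prkab1 rose by 0.72 (adjusted p = 2.64e-08). Hlcs, which attaches biotin to the carboxylases, rose by 0.40 (adjusted p = 9.96e-06). Cpt1a, the mitochondrial step that malonyl-CoA inhibits, had means of 10069.7 in CT and 9645 in C26 (log2 fold change -0.06, adjusted p = 0.639). Under quantile normalisation Cpt1a was instead 0.30 higher (adjusted p = 0.0131).

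**Figure D4:**
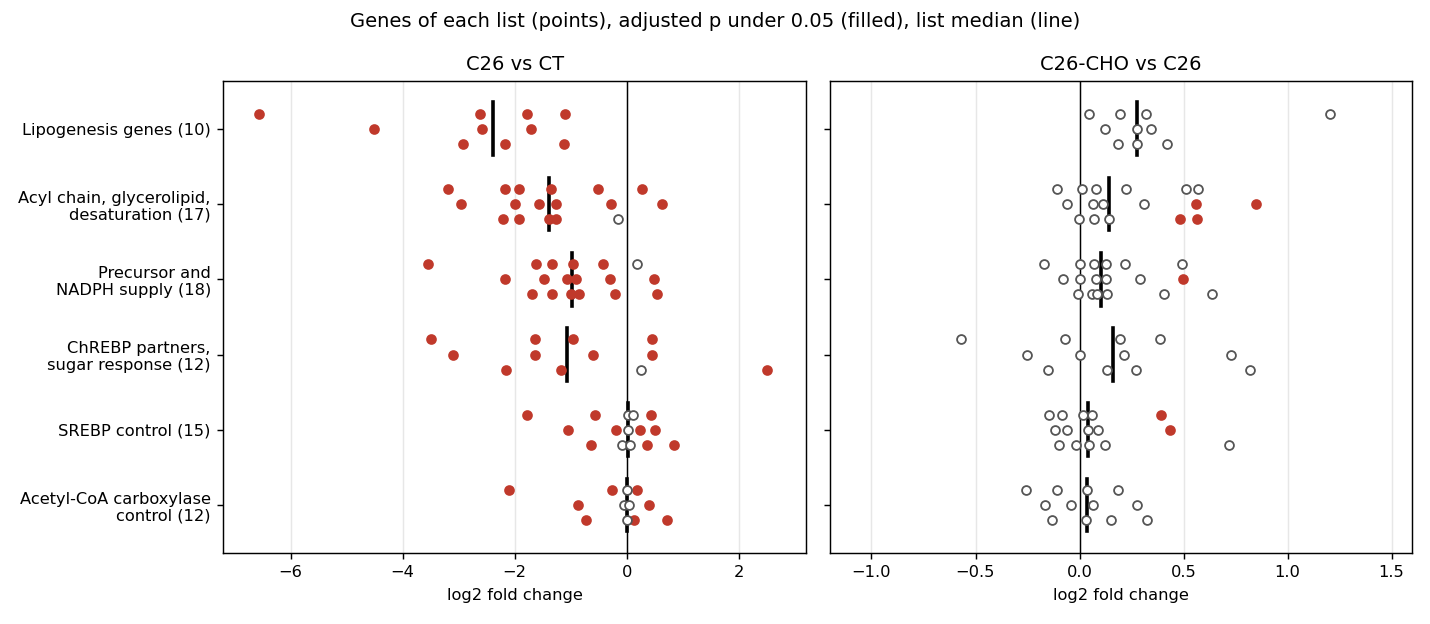
log2 fold change of each gene of the lipogenesis set and of the 5 neighbouring lists, in C26 vs CT and in C26-CHO vs C26 (the x axes differ in range). Points are genes, filled where the adjusted p is under 0.05, and black lines are list medians. In C26 vs CT the medians of the lipogenesis, acyl chain, precursor and ChREBP lists lie between -2.38 and -0.98 and those of the SREBP and carboxylase control lists at 0.03 and 0.00, and in C26-CHO vs C26 the filled points are 4 acyl chain genes, Idh1, Srebf2 and Bhlhe40.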

How the data were processed

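Per the labels' protocols, RNA was extracted from frozen liver with Trizol, treated with DNase and made into Illumina libraries. Per the submitters' processing notes, the tools were bcl2fastq 2.17, FastQC, Trimmomatic 0.38, STAR 2.6.1d and DESeq2 1.22.2, on GRCm38. The counting tool, annotation and strand setting: not given in the sources used here. The authors deposited a normalised signal, gene counts divided by size factors; within 0.001 of a read, 100.0% of values are whole multiples of the column's smallest step, so whole reads were recovered.

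limma 3.58.1 (R 4.3.3, trend) was fitted to log2(value + 1) for 24 libraries in 3 groups, keeping genes whose mean value reached 10. Benjamini-Hochberg adjustment ran over 14040 genes within a comparison, with a threshold of 0.05. Fold changes are on the log2(value + 1) scale. On simulated data the fit was tested for known changes. edgeR 4.0.16 (quasi-likelihood, TMM) on recovered reads was an alternative, calling 9301 genes in C26 vs CT (limma 9305), 117 in C26-CHO vs C26 (99) and 8807 in C26-CHO vs CT (8739). Exact permutation tests of ratios and correlations were computed by enumeration in Python 3.11.15, with ranks from SciPy 1.17.1. Alternatives were other scalings, pseudocounts of 0.5 and 5, no filter, 2-group fits, a replicate block, and leaving out each library.

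The members, gene lists and tests were chosen with earlier results of these data known. Named genes are the 10 members, Srebf2, up to 4 genes of each list with the smallest p in C26 vs CT and in C26-CHO vs C26, and the 5 genes nearest in pattern; a gene that this rule selects is not reported here. Wrap73 and Sc5d come from the likeness without C26-CHO 1, an alternative chosen after the data were seen, as was edgeR without that mouse.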

Additional observations from a re-analysis of the deposited data

Results flagged for a closer look

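Each gene was examined in each group for a mouse whose gap to its nearest neighbour took up an unusually large part of the group's range (Dixon's criterion at the 95% level). Of 30 combinations of gene and group, 8 were flagged. The criterion was applied to normalised read counts, not to their log2 values, and flags can depend on that scale. If values are normally distributed, chance flags about 1 in 20 groups. The 10 genes are measured in the same mice, so the flags are not independent.

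The highest mouse was C26-CHO 1 in 7 of the 8. It stood at 3995 normalised reads for Acly, where the other 7 C26-CHO mice lay between 2459 and 3026, and at 2086 for Acaca (others 811 to 973). Its Acacb was 2011 (others 936 to 1288) and its Fasn 5071 (others 1837 to 2367). For Scd1 it stood at 76717 against 579 to 5239, the widest gap of all. Me1 stood at 2377 (others 618 to 948) and Thrsp at 2511 (others 517 to 1097).

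The remaining flag was C26 8 for Scd1, at 3877 normalised reads where the other 7 C26 mice lay between 435 and 1393.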

How the results depend on the processing

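In all 33 alternatives the member calls stayed at 10 of 10 lower in C26 vs CT, 0 of 10 in C26-CHO vs C26 and 10 of 10 lower in C26-CHO vs CT, with the same direction for each gene against CT. In C26-CHO vs C26, Mlxipl was below 0 in 3 of the 33 and Thrsp in 2. Leaving out each library in turn moved the log2 fold change of Scd1 between -6.86 and -6.40 in C26 vs CT and between 0.47 and 1.49 in C26-CHO vs C26.

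List counts in C26-CHO vs C26 moved most. Acyl chain genes called went from 4 to 0 in the fit of the 2 groups alone, and to between 1 and 4 with a library left out. Precursor genes went from 1 to 0 under quantile normalisation, in the fit of the 2 groups alone, with the replicate block and in edgeR without C26-CHO 1, and to between 0 and 1 with a library left out. SREBP control genes went from 2 to 1 with no filter, with the replicate block and in edgeR without C26-CHO 1, to 0 in the fit of the 2 groups alone, and to between 1 and 3 with a library left out. That fit called 10 genes in all, against 99. The cause was not tested.

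The log2 ratio of Elovl6 to Fasn under quantile normalisation was 0.30 in C26 vs CT (exact adjusted p = 0.145) and 0.42 in C26-CHO vs CT (0.0706). With a library left out it lay between 0.37 and 0.56, and between 0.44 and 0.64. Srebf1 to Mlxipl in C26-CHO vs C26 (0.27, exact adjusted p = 0.0506) passed under quantile normalisation at 0.29 (0.0481), and lay between 0.24 and 0.35 with a library left out, passing without C26 5, C26 8, C26-CHO 2 or C26-CHO 5. Correlated regulator pairs went from 3 to 1 under quantile normalisation and to 0 without the 2 farthest mice, where 6 mice remain and a lone pair cannot pass (r of the 3 then 0.664 to 0.858). Cpt1a in C26 vs CT turned from -0.06 to 0.30 under quantile normalisation (limma adjusted p = 0.0131).

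Replicate numbers share no stated source. Same-numbered mice deviated together with correlations from -0.204 to 0.255, over 0.1 in 3, 2 and 4 of 8 pairs in the 3 comparisons, so the numbers were not taken as pairs. With the replicate block, limma called 9643 genes in C26 vs CT (10 lipogenesis genes), 97 in C26-CHO vs C26 (0) and 9079 in C26-CHO vs CT (10). Depth does not limit the members, the lowest of which had 291 reads.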
